A study of Mus musculus with 18 samples.

Results

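The collagen genes were followed in the mouse whisker pad after one facial nerve was cut. They were taken as every protein-coding gene whose symbol begins with Col and a digit, and 45 symbols of the 35150 genes in the table met that rule. One of them, Col4a3bp, encodes a ceramide transporter and no collagen, and it was left out. Of the 44 collagen genes, 32 had a mean of at least 1 TPM (a transcript abundance scaled for transcript length and library size) over the 18 samples when the values of all transcripts of a gene were added. These 32 are described here. They comprised 9 of 11 fibrillar collagens, 8 of 9 collagens of basement membranes, 5 of 9 FACIT collagens (fibril-associated collagens with interrupted triple helices) and 10 of 15 others.

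A collagen is built of 3 chains wound into a triple helix, in which glycine recurs at each turn of a Gly-X-Y repeat. Fibrillar collagens pack side by side into the load-bearing fibrils of dermis, tendon and the sheaths around muscle, FACIT collagens sit on the surface of those fibrils, and type IV collagen forms the sheet-like network of basement membranes under epithelia and around muscle fibers, vessels and Schwann cells. Among the others, type VI forms beaded microfilaments between the fibrils and the basement membrane, type VIII forms networks best known from vessels and the cornea, and types XIII, XVII, XXIII and XXV span the cell membrane. In skin and muscle the fibrillar and type VI chains are made mainly by fibroblasts, while types VII and XVII anchor the epidermis to the dermis.

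The samples came from 9 adult mice, 3 at each of days 1, 3 and 7 after surgery. The study as a whole used both sexes, and the sex of these 9 mice is not given. Their age is given as a median and range for the whole group, so whether age differed between days is unknown. On the right side of the face the facial nerve was cut in its buccal and superior marginal branches, which removes the motor supply of the whisker muscles, and this side is called denervated here. On the left side of the same mouse the skin was only opened and closed again, and this side, which the sample labels call intact, is called sham. A punch biopsy of skin and muscle of the rostral whisker pad was taken from each side, so each group held 3 samples of whole tissue, and the labels and methods give no strain, transgene or drug treatment for these mice beyond isoflurane anesthesia at surgery and before tissue was taken. Because the lesion was always on the right, side of the face and lesion cannot be told apart, and because each day came from different mice with library numbers that follow the days, day, mouse and library order cannot be told apart. There was no uninjured mouse among these samples, so the sham side is also a side with a skin incision.

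The table gave TPM that had been scaled between samples, with sums of 833186 to 1143839 per sample and no read counts, so the sequencing depth behind a value is unknown. Markers of both tissues were present in every sample: the summed level of the 10 skeletal muscle genes lay between 4707 and 28544 TPM, and that of the 8 epidermal genes between 4772 and 10025 TPM. Hemoglobin transcripts held 0.315% to 6.11% of the TPM in 17 samples and 16.7% in the denervated sample of day 7 mouse 1. The 32 collagens together held 0.0563% to 0.117% of a sample's TPM. In bulk tissue, fewer cells of a type and less RNA per cell cannot be told apart, and this applies to every value below.

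The glycine repeat that defines the family can be read in the genes. Glycine codons have the form GGN, and an unbroken run was counted as the number of consecutive triplets of codons that each begin with GGN in the longest coding transcript. That is the protein-coding transcript of greatest total length, counting also its bases that do not code. The longest run was 216 to 344 triplets in the 9 fibrillar genes (median 338), 30 to 75 in the basement membrane genes, 32 to 113 in the FACIT genes and 23 to 87 in the others. Fibrillar genes are also known for exons of 54 bases, which hold 6 such triplets, and these made up 41.2% to 55% of their coding exons, against 2.13% to 7.32% in the basement membrane genes. The FACIT range was wide, from 6.15% to 43.8%.

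The 54-base stretches that follow, from GRCm38 with gene models of GENCODE M21, are shown because they let the repeat be compared between classes and because each belongs to a gene whose levels are given later. All lie within 1 coding exon and are printed 5′ to 3′ on the strand of the gene. Capitals mark the glycine codon that begins each triplet of codons. Those of Col1a2, Col3a1 and Col5a1 (fibrillar) are whole exons, and those of Col4a1 (basement membrane), Col14a1 (FACIT), Col6a1 (microfilament) and Col17a1 (membrane-spanning) are stretches inside a longer exon.
Col1a2 (chr6:4515481-4515534, plus strand): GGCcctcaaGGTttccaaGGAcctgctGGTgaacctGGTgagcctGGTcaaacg
Col3a1 (chr1:45325360-45325413, plus strand): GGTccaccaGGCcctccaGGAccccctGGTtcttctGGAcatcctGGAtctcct
Col5a1 (chr2:27965251-27965304, plus strand): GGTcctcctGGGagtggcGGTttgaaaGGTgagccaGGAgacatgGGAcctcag
Col4a1 (chr8:11247042-11247095, minus strand): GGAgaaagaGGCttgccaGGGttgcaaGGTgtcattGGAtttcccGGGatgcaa
Col14a1 (chr15:55472927-55472980, plus strand): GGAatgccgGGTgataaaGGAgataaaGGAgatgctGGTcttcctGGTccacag
Col6a1 (chr10:76719623-76719676, minus strand): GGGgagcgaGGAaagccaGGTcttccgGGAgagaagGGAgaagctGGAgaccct
Col17a1 (chr19:47664964-47665017, minus strand): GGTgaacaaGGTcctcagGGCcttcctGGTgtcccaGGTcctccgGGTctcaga
Each stretch was picked to hold 6 unbroken triplets, so the spacing of the capital codons is the same in all 7. The codons between them differ from gene to gene, and in Col5a1 they include a further glycine codon, ggc.

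By summed TPM, a scale that accounts for transcript length, the most abundant collagen gene was Col17a1, the membrane collagen of the hemidesmosomes of basal keratinocytes, with a mean of 169 TPM over the 18 samples. It was followed by Col3a1 (119 TPM) and Col1a2 (90.1 TPM), chains of the main dermal fibrils, and these 3 genes held 44.5% of all collagen TPM. Next in order were Col7a1 (59.1 TPM), which builds the anchoring fibrils under the epidermis, the FACIT gene Col16a1 (57.3 TPM), Col1a1 (52.8 TPM), Col6a1 (35.8 TPM), Col18a1 (28.9 TPM), Col6a3 (27 TPM) and Col4a1 (26.7 TPM). The other 22 had means between 1.22 and 22.8 TPM, with Col28a1 and Col12a1 at the ends.

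That order rests in part on transcripts that cannot make a full collagen chain. The longest coding transcript held most of the sum in 15 of the 32 genes, and transcripts annotated as not coding held most of it in 8. For Col7a1 a single retained-intron transcript of 525 bases, Col7a1-208, held 71.6% of the sum, and the longest coding transcript had a mean of 1.21 TPM, which moved the gene from rank 4 to rank 21. Col16a1 fell likewise from rank 5 to rank 27 (0.344 TPM), and Col6a3 from rank 9 to rank 32, with its longest coding transcript listed at 0 and 72.2% of its sum in the 646-base retained-intron transcript Col6a3-206. Weighted by length, however, Col6a3-206 would hold about 16% of the Col6a3 reads and the 9001-base coding transcript Col6a3-202 about 83.4%. By longest coding transcript the leading genes were Col17a1 (121 TPM), Col1a2 (86.2 TPM), Col3a1 (66.9 TPM), Col1a1 (52.5 TPM) and Col6a1 (35.8 TPM), so both chains of type I and the chain of type III led the fibrillar class on either count. TPM divides by transcript length, so a few reads on a short transcript weigh as much as many on a long one. The assignment of reads among transcripts was made by the authors' software and could not be checked against reads here.

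**Figure D1:**
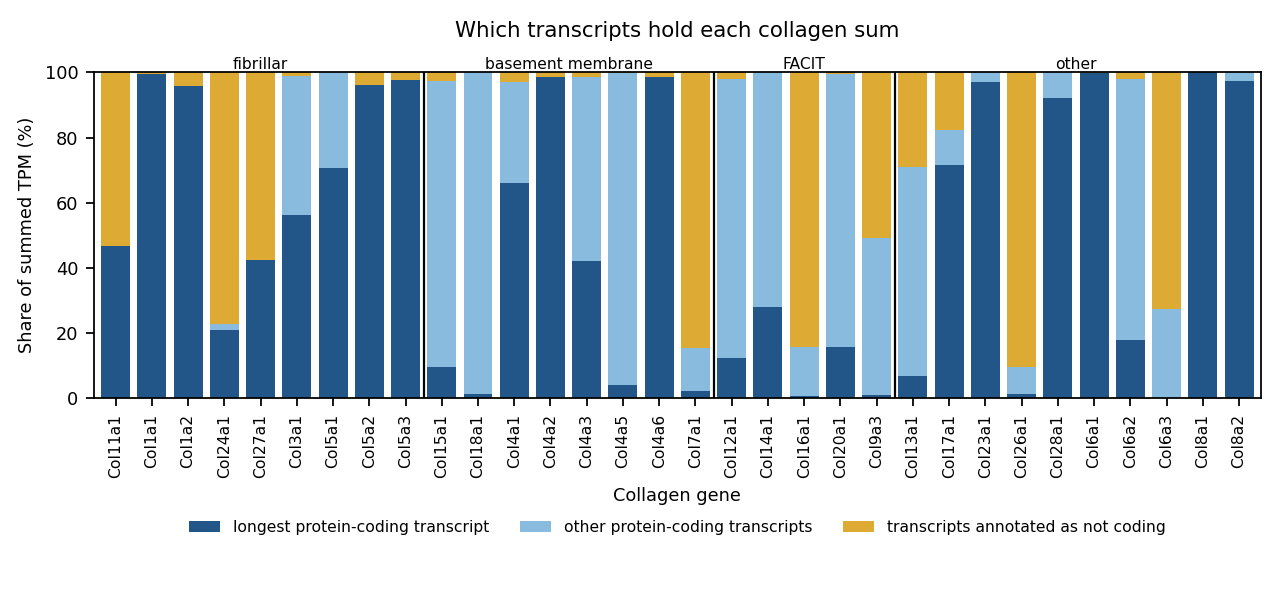
Share of the summed TPM of each of the 32 collagen genes (y axis, percent, mean over 18 samples) held by its longest protein-coding transcript, its other coding transcripts and its non-coding transcripts, with genes grouped by class. The longest coding transcript holds 99.9% of Col6a1 and 2.04% of Col7a1.

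Among the fibrillar genes, Col3a1 was the most abundant by summed TPM, and Col1a2 by longest coding transcript. On the sham side it stood at 33.3, 72.1 and 71.1 TPM at day 1, 67.8, 183 and 138 TPM at day 3 and 142, 92.6 and 187 TPM at day 7 in mice 1, 2 and 3 of each day. The denervated samples stood at 66.3, 91 and 53 TPM at day 1, 49.5, 151 and 202 TPM at day 3 and 218, 114 and 217 TPM at day 7. All day 7 samples of either side were above all day 1 samples of that side, and the sides overlapped at each day. The ratio of Col3a1 to Col1a1 had day means of 1.73, 2.15 and 2.79 at days 1, 3 and 7 by summed TPM, and of 1.01, 1.18 and 1.59 by longest coding transcript, because a coding transcript of 737 bases, Col3a1-205, held 42.9% of the Col3a1 sum. Type I collagen joins 2 products of Col1a1 with 1 of Col1a2, and the ratio of Col1a1 to Col1a2 TPM stayed between 0.482 and 0.680 over all samples.

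Col17a1 had 257, 207 and 175 TPM at day 1, 170.2, 155 and 216 TPM at day 3 and 171, 139 and 106 TPM at day 7 on the sham side, and 251, 167 and 149 TPM at day 1, 132, 159 and 173 TPM at day 3 and 130.4, 150.0 and 139.7 TPM at day 7 on the denervated side. Both sides had their highest sample at day 1, in the same mouse, and the sides overlapped at each day. Col7a1, the leader of the basement membrane class by summed TPM, had 96.4, 64 and 56.5 TPM at day 1, 57.8, 44.2 and 58.9 TPM at day 3 and 75.5, 56.6 and 47.5 TPM at day 7 on the sham side. Its denervated samples had 57.6, 55.9 and 74.2 TPM at day 1, 47.4, 53.7 and 56.1 TPM at day 3 and 43.6, 69.1 and 49 TPM at day 7, again overlapping with sham at each day. Col16a1, the leading FACIT gene by summed TPM, had 64.6, 45.8 and 71.3 TPM at day 1, 40.1, 66.5 and 68.5 TPM at day 3 and 55.5, 53.2 and 42 TPM at day 7 on the sham side. On the denervated side its values were 58, 66.7 and 76.4 TPM at day 1, 47.9, 68.5 and 61.5 TPM at day 3 and 51.7, 52.8 and 40.9 TPM at day 7, with no gap between the sides at any day. Between sides and between days, none of Col17a1, Col7a1 and Col16a1 passed the test described next.

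**Figure D2:**
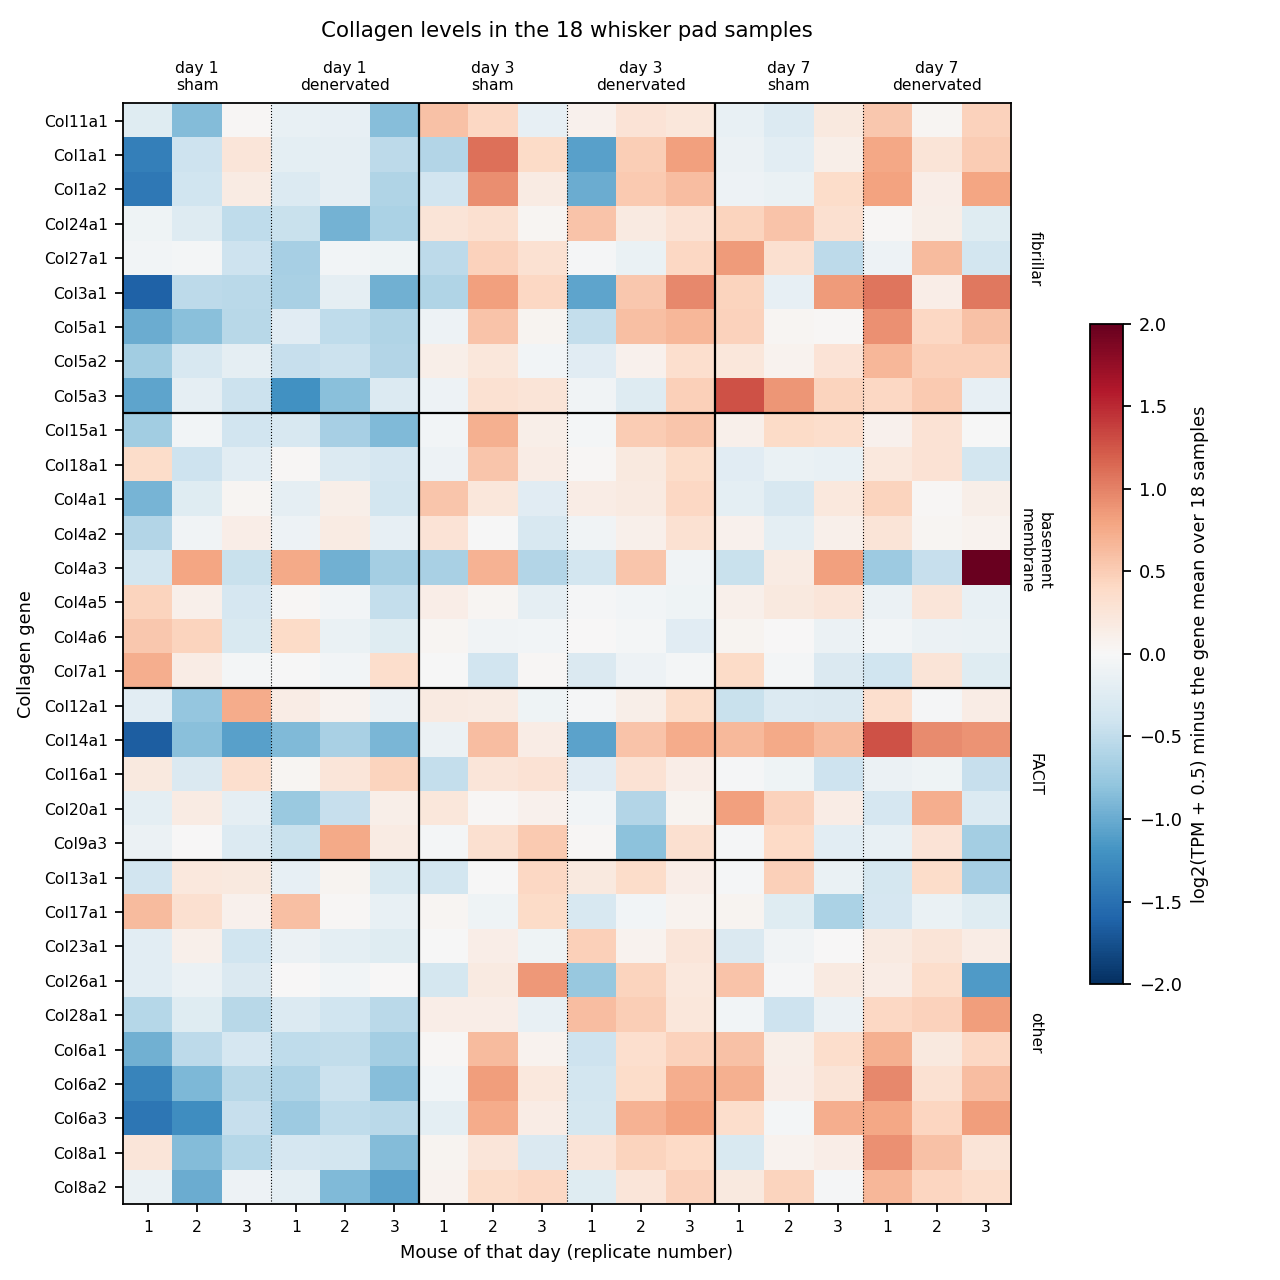
Heat map of log2(TPM + 0.5) of the 32 collagen genes (rows, grouped by class) in the 18 samples (columns, by day, side and mouse), each minus the gene's mean over the 18 samples. Day 1 columns are below the mean for most fibrillar and type VI genes on both sides, and their day 7 columns are mostly above it.

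The main question was whether the denervated whisker pad differed from the sham pad of the same mice. No collagen of at least 1 TPM passed the test at any day. On log2(TPM + 0.5), with Benjamini-Hochberg adjustment over all genes tested, limma called 0 of 30 at day 1, 0 of 31 at day 3, 0 of 32 at day 7 and 0 of 31 with all days together. The collagens tested are the described ones with at least 1 TPM in at least 47% of the samples. The shares of all genes called were 0%, 1.45%, 1.53% and 3.10%. At an unadjusted p under 0.05 the collagen counts were 0, 0, 9 and 4, where 4.29%, 14.7%, 12.3% and 14.7% of all genes were under it. Accounting for the mouse left all these calls at 0, in a fit that called 2.17% of all genes at day 7 and 3.50% over all days. There 12 collagens had an unadjusted p under 0.05 at day 7 and 7 over all days, against 17.7% and 17.1% of all genes. The median log2 difference (denervated minus sham) over the collagens was -0.02 at day 1, -0.03 at day 3 and 0.17 at day 7, against 0.01, -0.01 and 0.04 over all genes tested.

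How large a difference could have gone unseen is given by the intervals. With all days together, the 95% confidence interval of the difference lay within a 2-fold change in either direction for 31 of 31 collagens, the widest bounds being -0.67 and 0.79 on the log2 scale. At single days the same held for 22 of 30, 24 of 31 and 22 of 32 collagens, with median margins of 0.58, 0.53 and 0.44 to either side of the estimate. The data therefore bound the change over all days for each collagen tested, and leave a 2-fold change possible for several at a single day.

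Among the 32 described collagens, the lowest p-values at day 7 belonged to a FACIT and 2 fibrillar genes, and none passed adjustment. Col12a1, a FACIT collagen of muscle sheaths and tendon, was at 16.1, 18.2 and 18.1 TPM on the sham side and 28.2, 21.8 and 24.8 TPM on the denervated side, a log2 difference of 0.50 ± 0.13 (SE, adjusted p = 0.18). Col1a1, the major chain of type I collagen, was at 44.4, 41.5 and 52.4 TPM in sham and 83, 57.4 and 68.9 TPM in denervated samples, a difference of 0.58 ± 0.17 (SE, adjusted p = 0.216). The denervated samples all lay above the sham samples for both genes. The same was true of Col14a1, Col5a2, Col23a1, Col8a1 and Col28a1, giving 7 of 32 collagens, where 10.6% of all genes showed such a gap. The fibrillar gene Col24a1 was the only collagen with all denervated samples below sham, at 7.4, 7.92 and 6.05 TPM against 10.1, 11.1 and 9.24 TPM, a difference of -0.48 ± 0.15 (SE, adjusted p = 0.237); over all genes the share was 7.06%.

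At day 3 the denervated samples lay above sham without overlap for 2 of 31 collagens, Col8a1 and Col28a1 (11.7% of all genes). At day 1 this held for 1 of 30, Col26a1 (5.61% of all genes). No collagen had all denervated samples below sham at day 1 or day 3, where 3.95% and 9.82% of all genes did. Col28a1, a minor collagen known from peripheral nerve, came nearest to a call with all days together, at 0.41 ± 0.13 (SE, adjusted p = 0.0969). It was higher on the denervated side in 8 of 9 mice, and it reached 1 TPM only at days 3 and 7. Whether the difference between sides itself changed with day was tested as an interaction, and limma called 0 of 31 collagens for each pair of days, with 1 collagen at an unadjusted p under 0.05 in each. For day 3 against 1, day 7 against 1 and day 7 against 3, the shares of all genes called were 0.122%, 0.163% and 0%, and 9.22%, 7.14% and 6.86% were under that unadjusted threshold.

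**Figure D3:**
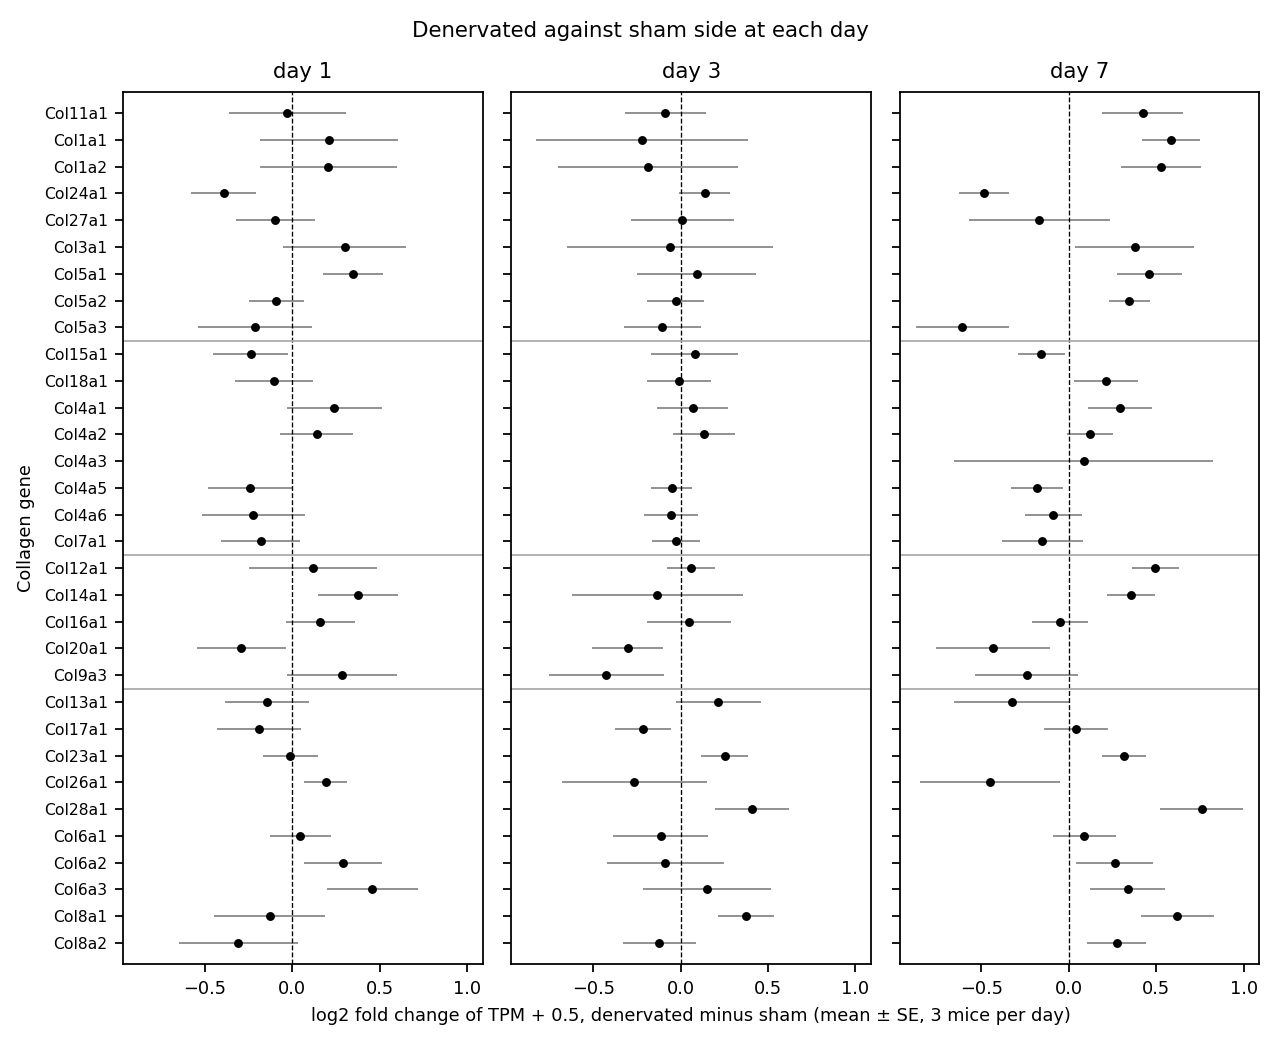
Log2 difference in TPM + 0.5 (x axis, denervated minus sham, mean ± SE from limma, 3 mice per day) of each collagen (y axis, grouped by class) at days 1, 3 and 7. The points scatter around zero at days 1 and 3 (medians -0.02 and -0.03) and lie somewhat to the right at day 7 (median 0.17).

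The collagens moved with day. On the denervated side, 12 of 31 were higher at day 7 than at day 1 and 0 were lower, in a contrast in which limma called 20.8% of all genes and 12.8% as higher. The median log2 change was 0.64 over the collagens and 0.02 over all genes tested. By class, 4 of 9 fibrillar, 1 of 7 basement membrane, 1 of 5 FACIT and 6 of 10 other collagens rose, with medians of 0.92, 0.17, 0.12 and 0.99. In the sham pads 3 of 31 rose and 0 fell, where 0.976% of all genes were called and 0.773% were called as higher. There 12 collagens had an unadjusted p under 0.05, as did 18.2% of all genes. With the mouse accounted for, the sham count was 4 (Col6a3 was added, 0.847% of all genes) and the denervated count stayed at 12 (20.2%). All day 7 samples lay above all day 1 samples for 17 of 31 collagens on the denervated side, against 22.2% of all genes, and for 12 of 31 on the sham side, against 10.2%.

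The smaller count on the sham side is not a shown difference between sides. All 12 genes called on the denervated side also had a day 7 level above day 1 on the sham side, 26 of 31 collagens had the same sign on both sides, and the test of the difference between the changes called none. When both sides of each mouse were averaged, 12 of 31 collagens rose from day 1 to day 7 (13.7% of all genes called, 8.81% as higher). They were the 12 called on the denervated side. The sides share their mice, so they are not independent readings of the same change.

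**Figure D4:**
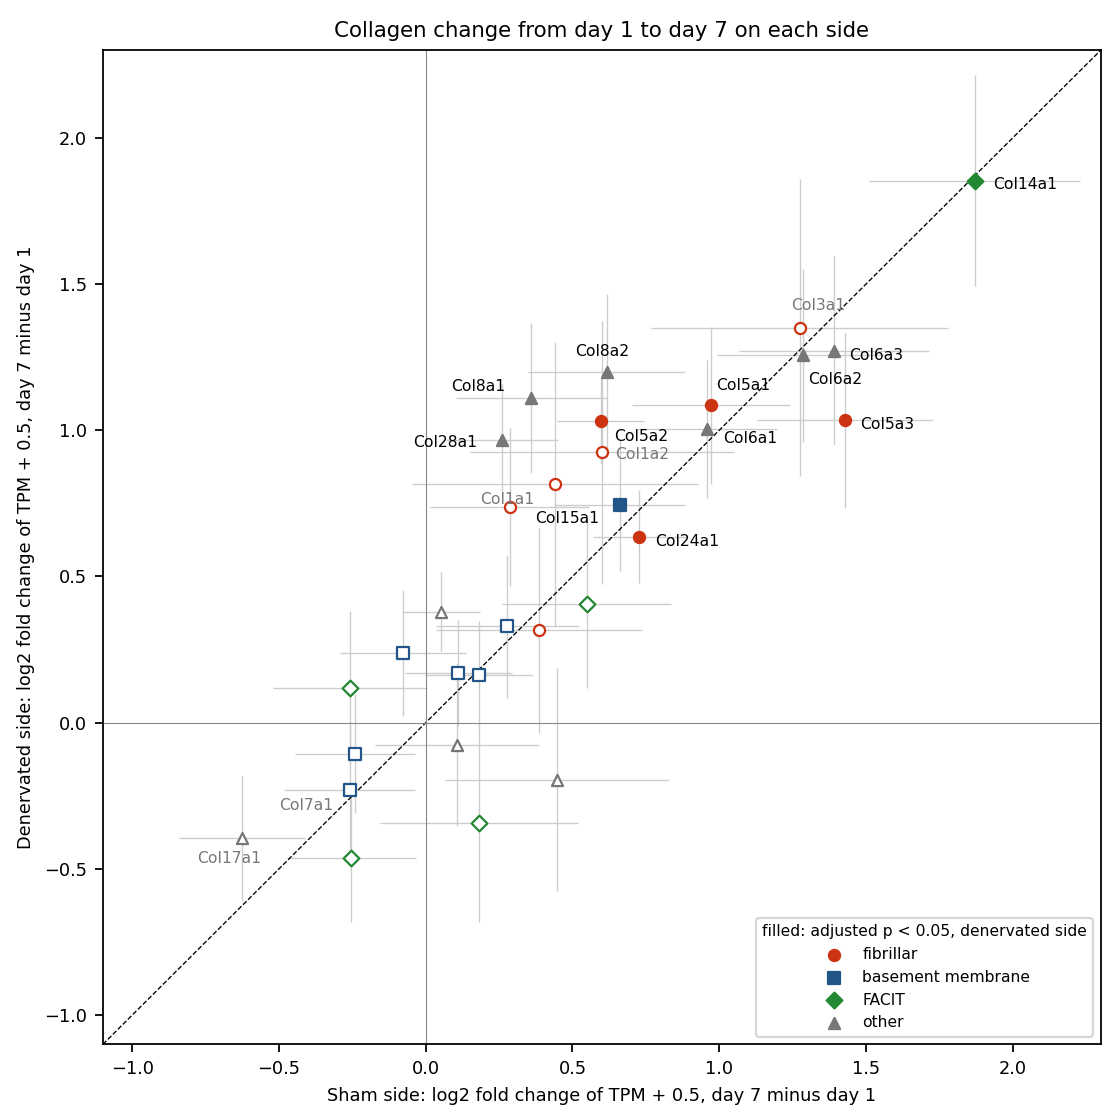
Log2 change of TPM + 0.5 from day 1 to day 7 on the sham side (x axis) against the denervated side (y axis) for 31 collagens, with SE bars, symbols by class and filled symbols for an adjusted p under 0.05 on the denervated side. All 12 filled symbols lie above zero on both axes, and Col14a1 is farthest from zero on both.

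Gene positions are given on GRCm38. Type V collagen, a minor fibrillar collagen that sits inside type I fibrils and sets their diameter, rose in all 3 of its chains on the denervated side. Col5a2 (chr1:45374321-45503282) had 10.9, 11 and 9.83 TPM at day 1, 12.8, 16 and 19.2 TPM at day 3 and 24.1, 21.1 and 21.2 TPM at day 7 there. The day 7 minus day 1 change there was 1.03 ± 0.15 (SE, adjusted p = 0.00062) on the log2 scale. On the sham side it had 9.12, 11.9 and 13.2 TPM at day 1, 16.3, 17.7 and 14.4 TPM at day 3 and 17.7, 15.9 and 18.3 TPM at day 7. The sham change was 0.60 ± 0.15 (SE, adjusted p = 0.0652). Days 1 and 7 did not overlap on either side. Col5a1 (chr2:27886425-28039514) had 7.46, 6.01 and 5.62 TPM at day 1, 6.19, 13.6 and 14.3 TPM at day 3 and 17, 12 and 13.4 TPM at day 7 on the denervated side. The rise there was 1.09 ± 0.27 (SE, adjusted p = 0.0124). Its sham samples had 4.17, 4.72 and 5.81 TPM at day 1, 8.2, 13.3 and 9.13 TPM at day 3 and 12.3, 9.1 and 8.99 TPM at day 7. Sham day 7 minus day 1 was 0.97 ± 0.27 (SE, adjusted p = 0.0877). Here too every day 7 sample was above every day 1 sample of its side, while the denervated sample of day 3 mouse 1 was still among the day 1 values.

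Col5a3 (chr9:20770050-20815067), the third type V chain, rose on both sides. Its denervated samples had 2.28, 3.1 and 4.83 TPM at day 1, 5.66, 4.91 and 8.44 TPM at day 3 and 8.08, 8.76 and 5.28 TPM at day 7. Its log2 change there was 1.03 ± 0.30 (SE, adjusted p = 0.0258). Its sham samples had 2.59, 5.17 and 4.26 TPM at day 1, 5.52, 7.48 and 7.18 TPM at day 3 and 15.1, 11.4 and 8.27 TPM at day 7. The log2 change here was 1.43 ± 0.30 (SE, adjusted p = 0.0468), a call kept in 8 of 19 alternative settings. At day 7 the sham mean was 11.6 ± 3.41 TPM against 7.37 ± 1.85 TPM on the denervated side (SD, n = 3), with overlap between the sides. Col24a1 (chr3:145292472-145552011), a rarer fibrillar collagen known from bone and cornea, also rose on both sides. It had 5.21, 3.55 and 4.52 TPM at day 1, 11.1, 8.3 and 8.98 TPM at day 3 and 7.4, 7.92 and 6.05 TPM at day 7 on the denervated side. That side's log2 change was 0.64 ± 0.16 (SE, adjusted p = 0.0128). Sham samples had 6.87, 5.98 and 4.99 TPM at day 1, 8.84, 9.21 and 7.5 TPM at day 3 and 10.1, 11.1 and 9.24 TPM at day 7. For sham the change was 0.73 ± 0.16 (SE, adjusted p = 0.0474), a call kept in 6 of 19 alternative settings. The mean was highest at day 3 on the denervated side and at day 7 on the sham side. Transcripts that do not code held 77.1% of the Col24a1 sum, and its call on the denervated side was lost when only the longest coding transcript was used.

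The major fibrillar chains had differences above 0 with more spread and were not called. From day 1 to day 7 on the denervated side the log2 differences were 1.35 ± 0.51 (SE, adjusted p = 0.0714) for Col3a1, 0.92 ± 0.45 (SE, adjusted p = 0.157) for Col1a2 and 0.82 ± 0.49 (SE, adjusted p = 0.249) for Col1a1. The minor fibrillar genes Col11a1, a nucleator of fibrils best known from cartilage, and Col27a1, also known from cartilage, had means of 1.96 and 3.74 TPM and gave 0.74 ± 0.27 (SE, adjusted p = 0.0663) and 0.32 ± 0.35 (SE, adjusted p = 0.551). Day 3 shows the spread among samples: Col1a1 ranged from 22.4 to 85.7 TPM among the 3 denervated samples. The summed fibrillar TPM was 189 ± 72.9, 349 ± 147 and 328 ± 66.3 on the sham side at days 1, 3 and 7, and 204 ± 33.1, 338 ± 165 and 436 ± 102.1 on the denervated side (SD, n = 3). The other classes had flatter sums, with group means of 152 to 173 TPM for the basement membrane genes, 92.4 to 102.1 TPM for FACIT and 260.1 to 304 TPM for the others.

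Col14a1 (chr15:55307750-55520803), a FACIT collagen of the fibril surface that is found in dermis and around muscle, had the largest rise of the 31. On the denervated side it had 5.17, 6.18 and 5.06 TPM at day 1, 4.51, 15 and 17 TPM at day 3 and 24.9, 19.7 and 19 TPM at day 7. Day 7 minus day 1 came to 1.85 ± 0.36 (SE, adjusted p = 0.00342). On the sham side it had 2.85, 5.35 and 4.44 TPM at day 1, 9.15, 15.5 and 11.1 TPM at day 3 and 15.9, 17.3 and 15.7 TPM at day 7. The sham change was 1.87 ± 0.36 (SE, adjusted p = 0.0348). The changes on both sides were nearly equal, with no overlap between days 1 and 7 on either. The other FACIT genes did not pass: from day 1 to day 7 on the denervated side Col12a1 gave 0.12 ± 0.26 (SE, adjusted p = 0.776), Col16a1 -0.46 ± 0.22 (SE, adjusted p = 0.147), Col20a1 0.41 ± 0.29 (SE, adjusted p = 0.332) and Col9a3 -0.34 ± 0.34 (SE, adjusted p = 0.497).

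All 3 of the described type VI chains rose on the denervated side. Col6a1 (chr10:76708792-76726168) had 23.8, 23.8 and 20.9 TPM at day 1, 25.3, 42.8 and 46.8 TPM at day 3 and 55.8, 38.9 and 45.5 TPM at day 7 there. The rise there was 1.00 ± 0.24 (SE, adjusted p = 0.00941). Sham samples had 17.2, 23.4 and 26.6 TPM at day 1, 34.3, 52.5 and 35.7 TPM at day 3 and 51.3, 36.8 and 43.2 TPM at day 7. Sham day 7 minus day 1 was 0.96 ± 0.24 (SE, adjusted p = 0.0623). Col6a2 (chr10:76595762-76623630) had 11.7, 13.5 and 9.94 TPM at day 1, 14.1, 23.7 and 30.6 TPM at day 3 and 35.9, 22.7 and 28.2 TPM at day 7 on the denervated side. Its log2 change there was 1.26 ± 0.30 (SE, adjusted p = 0.00945). Its sham samples had 6.99, 9.56 and 12.4 TPM at day 1, 17.6, 33.2 and 21.1 TPM at day 3 and 30.1, 20.04 and 21.9 TPM at day 7. The log2 change here was 1.29 ± 0.30 (SE, adjusted p = 0.054). The 3 chains are known to assemble in equal numbers. The ratio of Col6a1 to Col6a2 TPM was 1.53 to 2.46 over the samples by sum, and 8.1 to 13.6 by longest coding transcript. The samples ranked alike in these 2 genes: in each, day 3 mouse 1 was the lowest day 3 sample on both sides. In each, day 7 mouse 1 was the highest day 7 sample on both sides. For Col6a3 the lowest day 3 sample was the same, but the highest day 7 sample was mouse 3 on both sides. Col6a3 (chr1:90765923-90843971) had 14.4, 16.9 and 16.5 TPM at day 1, 18.9, 39.5 and 42.5 TPM at day 3 and 41.7, 32.9 and 43.5 TPM at day 7 on the denervated side. That side's log2 change was 1.27 ± 0.32 (SE, adjusted p = 0.014). Sham values were 8.6, 9.95 and 17.5 TPM at day 1, 21, 40.7 and 27 TPM at day 3 and 31.1, 23.5 and 40.3 TPM at day 7. For sham the change was 1.39 ± 0.32 (SE, adjusted p = 0.0563). Transcripts that do not code held 72.6% of the Col6a3 sum. Its longest coding transcript was listed at 0, so its call could not be tested by that transcript. No day 7 sample of a type VI chain was as low as any day 1 sample of the same side. The Col6a1 to Col6a2 ratio was lower on the denervated side in 8 of 9 mice, by a mean log2 difference of -0.15 ± 0.18 (SD, exact sign-flip test, two-sided p = 0.043, adjusted p = 0.172 over 4 ratios, smallest possible p 0.0039), which did not pass.

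The promoters of a type VI and a type V gene that rose together are shown for inspection: the 250 bases before the RefSeq start (GRCm38.p6), 5′ to 3′ on the gene's strand, with matches to GGGCGG (or CCGCCC, the same motif on the other strand), the core of a GC box, in capitals.
Col6a3 (chr1:90843972-90844221, minus strand): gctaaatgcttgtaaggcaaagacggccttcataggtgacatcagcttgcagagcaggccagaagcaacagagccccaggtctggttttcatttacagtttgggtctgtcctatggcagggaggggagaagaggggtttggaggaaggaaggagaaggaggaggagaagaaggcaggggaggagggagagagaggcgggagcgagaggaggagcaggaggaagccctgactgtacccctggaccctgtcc
Col5a1 (chr2:27886175-27886424, plus strand): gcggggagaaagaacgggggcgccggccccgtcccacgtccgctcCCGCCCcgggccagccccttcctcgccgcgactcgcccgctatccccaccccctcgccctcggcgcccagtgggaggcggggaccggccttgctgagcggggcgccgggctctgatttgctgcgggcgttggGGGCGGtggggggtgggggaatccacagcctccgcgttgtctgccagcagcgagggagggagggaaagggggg
Over windows of 250 bases before and 50 after the start, GGGCGG was present in 35.7% of 32851 promoters, in 16 of the 25 described collagens with a promoter sequence, and in 5 of the 10 of these that rose on the denervated side. CCAAT (or ATTGG) was in 37.4% of all promoters, 10 of the 25 and 1 of the 10, and TATAAA (or TTTATA) in 13.6%, 3 of the 25 and 0 of the 10. A match is a string of letters in the window and no evidence of binding.

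Both type VIII chains rose on the denervated side. Col8a1 (chr16:57624258-57754737) had 4.61, 4.46 and 3.02 TPM at day 1, 7.23, 8.26 and 8.01 TPM at day 3 and 11.6, 9.1 and 7.2 TPM at day 7. Day 7 minus day 1 came to 1.11 ± 0.26 (SE, adjusted p = 0.00863). On the sham side it had 7.1, 3.03 and 3.84 TPM at day 1, 6.17, 7.09 and 4.74 TPM at day 3 and 4.72, 6.22 and 6.53 TPM at day 7. The sham change was 0.36 ± 0.26 (SE, adjusted p = 0.491), and days 1 and 7 overlapped there. Col8a2 (chr4:126286793-126314330) had 4.26, 2.44 and 2.09 TPM at day 1, 4.12, 5.97 and 6.98 TPM at day 3 and 8.12, 6.85 and 6.43 TPM at day 7 on the denervated side. The rise there was 1.20 ± 0.27 (SE, adjusted p = 0.00703). Sham samples had 4.45, 2.25 and 4.57 TPM at day 1, 5.19, 6.51 and 6.72 TPM at day 3 and 5.73, 6.93 and 4.86 TPM at day 7. Sham day 7 minus day 1 was 0.62 ± 0.27 (SE, adjusted p = 0.237), without overlap between days 1 and 7. In sham mouse 1 of day 1, Col8a1 was as high as in the later days. Col28a1 (chr6:7997808-8192617) had 0.864, 0.751 and 0.641 TPM at day 1, 2.04, 1.82 and 1.43 TPM at day 3 and 1.69, 1.76 and 2.44 TPM at day 7 on the denervated side. Its log2 change there was 0.97 ± 0.19 (SE, adjusted p = 0.00374). All its day 1 samples were under 1 TPM. It therefore entered this and the other tests over all 18 samples only through samples of days 3 and 7, mostly denervated ones. Its sham samples had 0.615, 0.899 and 0.623 TPM at day 1, 1.31, 1.31 and 0.982 TPM at day 3 and 1.09, 0.741 and 1.02 TPM at day 7. The log2 change here was 0.26 ± 0.19 (SE, adjusted p = 0.508). All sham samples of Col28a1 lay below every denervated sample of days 3 and 7. The test of the difference between these changes gave 0.71 ± 0.27 (SE, adjusted p = 0.581) for Col28a1 and 0.75 ± 0.36 (SE, adjusted p = 0.718) for Col8a1, so neither was shown to differ between sides.

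Of the basement membrane collagens, only Col15a1 (chr4:47208161-47313167), which links basement membranes to the fibrils beneath and is found around capillaries and muscle fibers, was called. On the denervated side it had 16.9, 13.2 and 11.2 TPM at day 1, 20.5, 30.2 and 31.4 TPM at day 3 and 22.6, 26 and 21 TPM at day 7. That side's log2 change was 0.74 ± 0.22 (SE, adjusted p = 0.0302). Sham samples had 12.9, 20.3 and 16.1 TPM at day 1, 20.4, 35.1 and 23 TPM at day 3 and 22.8, 27.6 and 27.3 TPM at day 7. For sham the change was 0.66 ± 0.22 (SE, adjusted p = 0.142). The type IV chains present in every basement membrane gave 0.33 ± 0.24 (SE, adjusted p = 0.356) for Col4a1 and 0.16 ± 0.18 (SE, adjusted p = 0.561) for Col4a2 on the denervated side and did not pass. These genes start head to head on chromosome 8 and their annotated starts overlap by 22 bases, which is short beside their transcripts. The type IV chains Col4a5 (mean 7.92 TPM) and Col4a6 (2.51 TPM), whose genes are neighbors on the X chromosome, gave 0.17 ± 0.18 (SE, adjusted p = 0.539) and -0.11 ± 0.20 (SE, adjusted p = 0.745), and Col4a3 was tested between sides at day 7 alone (0.08 ± 0.74 SE, adjusted p = 0.978). Col18a1, the parent of endostatin, gave 0.24 ± 0.22 (SE, adjusted p = 0.456), and Col7a1 gave -0.23 ± 0.22 (SE, adjusted p = 0.492). In the group of others, Col17a1 gave -0.40 ± 0.21 (SE, adjusted p = 0.202), Col13a1, a membrane collagen found at the neuromuscular junction (mean 1.73 TPM), -0.08 ± 0.28 (SE, adjusted p = 0.873), and Col26a1 (mean 4.7 TPM) -0.19 ± 0.38 (SE, adjusted p = 0.748). The values of the basement membrane and epidermal collagens that did not pass lay on both sides of 0.

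**Figure D5:**
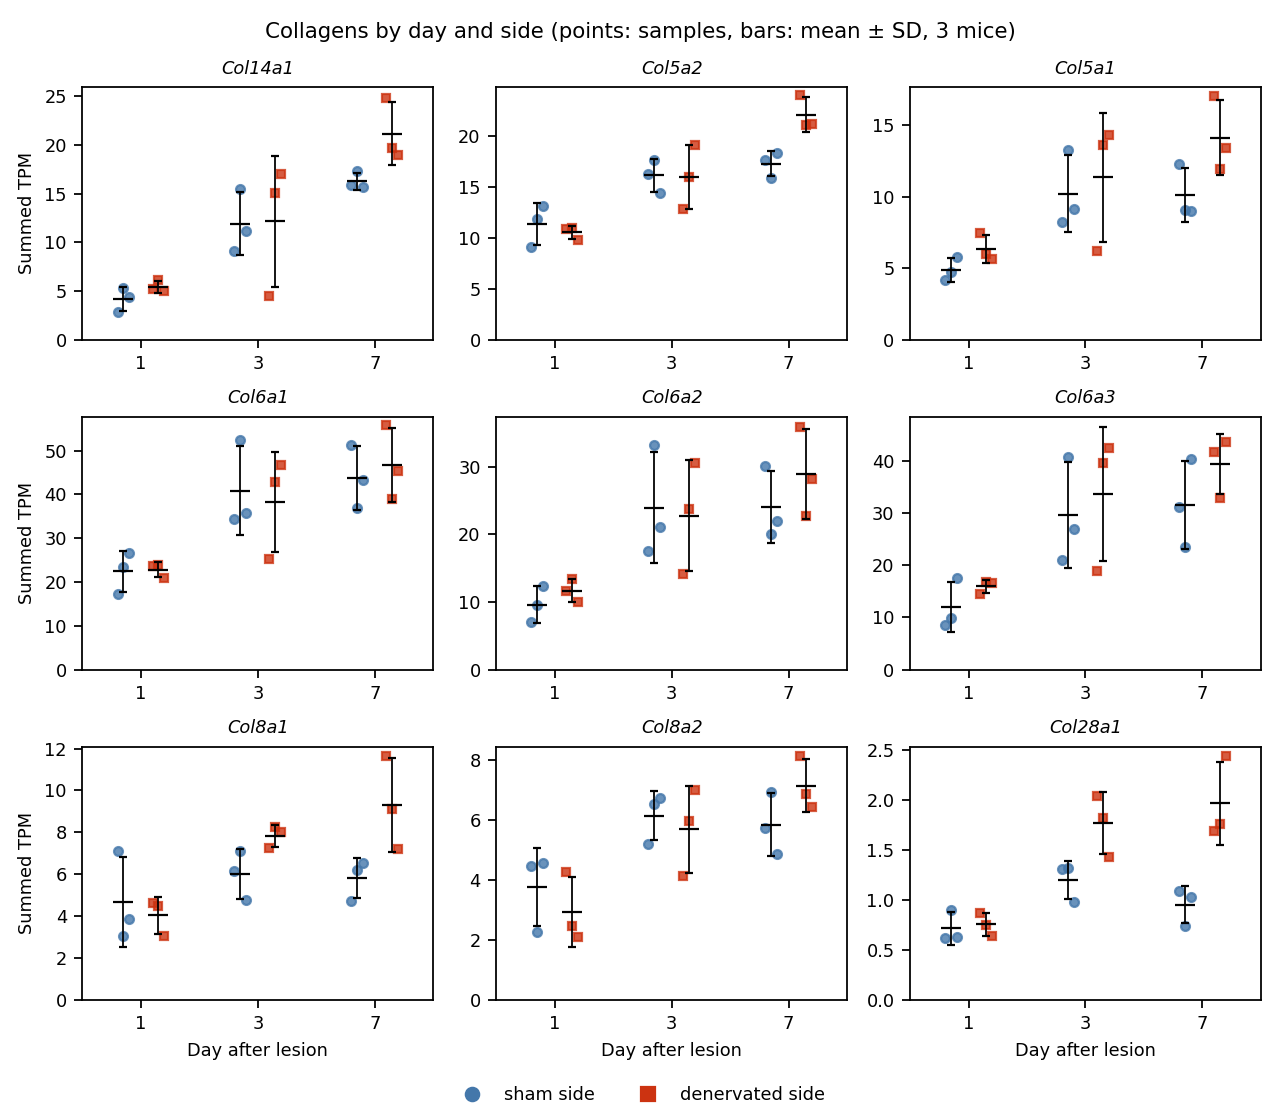
Summed TPM (y axis, from 0) of 9 collagens that rose on the denervated side, by day after surgery (x axis), with a point per sample (circles sham, squares denervated) and bars for mean ± SD of 3 mice. In each panel the denervated day 7 points lie above the denervated day 1 points.

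Part of the rise was there by day 3. Between days 1 and 3, 7 of 31 collagens rose on the denervated side and 0 fell (10.3% of all genes called, 7.31% as higher). Of these, 6 were also called between days 1 and 7. The 7 were Col24a1 (1.02 ± 0.16 SE, adjusted p = 0.00179), Col15a1 (0.96 ± 0.22 SE, adjusted p = 0.0159), Col8a1 (0.90 ± 0.26 SE, adjusted p = 0.039), Col8a2 (0.88 ± 0.27 SE, adjusted p = 0.0499), Col28a1 (0.85 ± 0.19 SE, adjusted p = 0.0136), Col5a2 (0.56 ± 0.15 SE, adjusted p = 0.0286) and Col23a1 (0.45 ± 0.13 SE, adjusted p = 0.0476). Col23a1, a membrane-spanning collagen of epithelia, had 7.56, 7.09 and 6.87 TPM at day 1, 11.6, 8.68 and 9.76 TPM at day 3 and 9.39, 9.89 and 9.16 TPM at day 7 on the denervated side and 7.02, 8.85 and 6.07 TPM at day 1, 8.17, 9 and 7.69 TPM at day 3 and 6.63, 7.76 and 8.26 TPM at day 7 on the sham side. Its call was lost with the mouse accounted for, which left 6 of the 7, and was kept in 4 of 19 alternative settings. Col8a2 kept its call between these days in 5 of 19. The sham side had 0 calls between days 1 and 3, where limma called 0% of all genes, with 14 collagens at an unadjusted p under 0.05 beside 13.4% of all genes. With both sides averaged, 4 collagens rose by day 3, Col15a1, Col24a1, Col5a2 and Col6a2 (3.56% of all genes called, 2.88% as higher). Between days 3 and 7 limma called 0 collagens on either side, and 0.298% of all genes on the denervated and 0% on the sham side. At an unadjusted p under 0.05 there were 3 collagens on the denervated and 1 on the sham side, against 12.4% and 13.1% of all genes.

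Other tissue markers moved with day as well, and their part in the collagen changes was not tested. From day 1 to day 7 the median log2 change of the 10 skeletal muscle genes was 1.29 on the denervated and 1.38 on the sham side (5 and 0 called), of 5 adipocyte genes 2.02 and 1.60 (4 and 0), of 9 fibroblast genes 0.93 and 0.83 (3 and 0), of 6 endothelial genes 0.84 and 0.77 (4 and 1), of 6 macrophage genes 1.13 and 0.33 (2 and 0) and of 6 Schwann cell genes 0.38 and 0.26 (2 and 0), in contrasts that called 20.8% and 0.976% of all genes. The 8 epidermal genes had medians of -0.09 and -0.57, with Krt14 lower on the denervated side (-0.99 ± 0.22 SE, adjusted p = 0.00625). The summed muscle level was 4707 to 24043 TPM in the day 1 samples and 24496 to 28544 TPM in the day 7 samples, and the fibroblast sum was 707 to 1433 TPM and 1441 to 2399 TPM. All of these markers had means of at least 1 TPM. At an unadjusted p under 0.05 the sham counts were 8 of 10 muscle, 4 of 5 adipocyte, 6 of 9 fibroblast, 4 of 6 endothelial, 0 of 6 macrophage, 1 of 6 Schwann cell and 2 of 8 epidermal genes, beside 18.2% of all genes. Between sides at day 7, where 1.53% of all genes were called, limma called the muscle genes Actn3 (1.64 ± 0.18 SE, adjusted p = 0.00997) and Ckm (-1.12 ± 0.13 SE, adjusted p = 0.01) and the cartilage gene Comp (1.70 ± 0.22 SE, adjusted p = 0.0169). Of 8 cartilage genes, 6 had means under 1 TPM (sums of 35.8 to 89.0 TPM), and the cartilage collagen Col2a1 stood at 0.63 TPM.

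With a mouse left out, the call count between days 1 and 7 on the denervated side was lowest without day 7 mouse 1. There 5 of the 12 collagens remained called, Col14a1, Col28a1, Col5a2, Col8a1 and Col8a2. That mouse also held the most hemoglobin RNA on that side, whose part in the calls was not tested. Shares of all genes called in these smaller fits are not given here. The counts therefore do not show whether collagens lost calls more than other genes did. The count between days 1 and 3 fell from 7 to 1 (Col24a1) without day 1 mouse 3 or without day 3 mouse 2, to 2 without day 3 mouse 3, to 3 without day 1 mouse 2 and to 4 without day 7 mouse 2. With both sides averaged, the 12 collagens called between days 1 and 7 became 2 (Col14a1 and Col5a2) without day 7 mouse 1, 5 without day 1 mouse 2 and 7 without day 7 mouse 2, and the 4 called between days 1 and 3 became 0 to 8. The sham count between days 1 and 7 ranged from 0 to 5 over the mice left out, and was 0 without day 1 mouse 1, day 1 mouse 2, day 7 mouse 1 or day 7 mouse 2, 1 without day 3 mouse 2, day 3 mouse 3 or day 7 mouse 3, and 5 without day 1 mouse 3 or day 3 mouse 1. The median change between sides at day 7 stayed between 0.19 and 0.22.

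Genes that work on collagen were read beside it. A chain is hydroxylated, folded with the help of chaperones, secreted, trimmed by proteinases and cross-linked by lysyl oxidases. Between sides with all days together, limma called 0 of 19 folding and modification enzymes, 0 of 9 trimming and cross-linking genes, 0 of 8 collagen receptors, 0 of 12 collagen-binding matrix proteins and 0 of 10 basement membrane partners, where 3.10% of all genes were called. The counts at an unadjusted p under 0.05 were 0, 1, 2, 1 and 1, against 14.7% of all genes. At day 7 alone none of these genes was called either, where 1.53% of all genes were. Under the unadjusted threshold were 0 of 19, 0 of 10, 2 of 8, 6 of 12 and 0 of 10 there, against 12.3% of all genes. The 12 matrix proteins had a median log2 difference of 0.54 at day 7. With the mouse accounted for, 2 of them were called there (2.17% of all genes). The counts that follow are for the change from day 1 to day 7 on the denervated side, in which 20.8% of all genes were called and 12.8% as higher. There 6 of 19 folding and modification enzymes rose, among them the prolyl hydroxylase P4ha1 (0.45 ± 0.15 SE, adjusted p = 0.0429) and the chaperone Fkbp14 (1.16 ± 0.18 SE, adjusted p = 0.00113). Of 9 trimming and cross-linking genes 3 rose, Pcolce, which aids trimming, and the lysyl oxidase genes Loxl1 and Loxl2. The 7 of 12 matrix proteins that rose were Lum (2.35 ± 0.61 SE, adjusted p = 0.0159), Bgn, Fn1, Postn, Tnc, Aspn and Ogn, and 2 of 10 basement membrane partners rose, Nid1 and Nid2, a share near that of all genes. Of 8 receptors, Itga11 and Itgb1 rose and Ddr1, a receptor of epithelial cells, fell (-0.62 ± 0.16 SE, adjusted p = 0.0162). On the sham side Loxl1 alone passed (1.55 ± 0.33 SE, adjusted p = 0.0471).

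The collagen chaperone Serpinh1 was at 42.4 ± 4.97 TPM at day 1 and 56.4 ± 6.48 TPM at day 7 on the denervated side (SD, n = 3), a log2 difference of 0.41 ± 0.25 (SE, adjusted p = 0.26). The cross-linking enzyme Lox was at 17.8 ± 3.57 and 14.1 ± 3.52 TPM, -0.34 ± 0.47 (SE, adjusted p = 0.65). The collagen-binding proteins Sparc and Dcn gave 0.75 ± 0.26 (SE, adjusted p = 0.0547) and 0.83 ± 0.34 (SE, adjusted p = 0.0964), neither of which passed.

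Transforming growth factor beta (TGF-beta) is the best known inducer of collagen genes, acting through its receptors and the transcription factor Smad3. In the list of its genes, 3 of 10 were higher on the denervated side with all days together, as were 1.92% of all genes tested. Smad3 gave 1.11 ± 0.10 (SE, adjusted p = 1.03e-05), with 11.5 ± 1.04 TPM in sham and 24.5 ± 2.41 TPM in denervated samples at day 7 (SD, n = 3). Tgfb3 gave 0.46 ± 0.10 (SE, adjusted p = 0.0205) and the receptor Tgfbr1 0.60 ± 0.14 (SE, adjusted p = 0.0268), and both lost their call when the mouse was accounted for (adjusted p = 0.0511 and 0.0762). Tgfb1 gave 0.19 ± 0.12 (SE, adjusted p = 0.531). From day 1 to day 7 on the denervated side 4 of the 10 rose (12.8% of all genes), Tgfb3, Tgfbr1, Tgfbr2 and Ccn2, of which Tgfbr2 was not called with the mouse accounted for (adjusted p = 0.0563). With the mouse accounted for, limma also called Bgn at day 7 (log2 difference 0.87, adjusted p = 0.0491), Thbs1 at day 7 (0.74, 0.0433) and Lamb2 over all days (-0.41, 0.0117).

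The 12 collagen genes under 1 TPM were Col25a1 (0.86 TPM), Col11a2 (0.80), Col4a4 (0.79), Col22a1 (0.68), Col2a1 (0.63), Col6a6 (0.62), Col9a2 (0.38), Col19a1 (0.23), Col6a5 (0.15), Col6a4 (0.12), Col10a1 (0.12) and Col9a1 (0.10). Just inside the limit were Col28a1 at 1.22 TPM and Col4a3 at 1.28 TPM. Col4a3 had 0.281 to 2.19 TPM in 17 samples and 5.49 TPM in the denervated sample of day 7 mouse 3. Col25a1, just outside the limit, is a membrane-spanning collagen of developing muscle with a known part in motor innervation. It had 0.357, 0.404 and 0.205 TPM at day 1, 0.549, 0.438 and 0.24 TPM at day 3 and 0.405, 0.433 and 0.717 TPM at day 7 on the sham side and 0.32, 0.421 and 0.343 TPM at day 1, 1.48, 0.726 and 1.82 TPM at day 3 and 1.54, 1.99 and 3.02 TPM at day 7 on the denervated side. Its denervated samples were all above its sham samples at days 3 and 7 and overlapped with them at day 1.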

How the data were processed

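RNA of 18 whisker pad biopsies (9 mice, both sides) had been extracted with TRIzol, and libraries made with a kit that does not mark strand. The deposited values are a signal per transcript: TPM that the authors estimated with Kallisto 0.43.1 on Ensembl GRCm38 cDNA, after base calling with bcl2fastq 2.17.1.14, removal of duplicate reads and trimming, and then normalized between samples in Sleuth. Sample sums therefore differ. No read count was used here, so depth, counting error and count models do not enter. The labels and the column names number the mice of day 7 differently, and the columns were matched by day, side and library number.

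Transcripts were matched to GENCODE M21 (98.5% of 113194) and summed by gene. Genes that reached 1 TPM in 47% or more of a comparison's samples were tested with limma 3.58.1 in R 4.3.3 (mean-variance trend, empirical Bayes) on log2(TPM + 0.5), so fold changes of low genes are understated. P-values were adjusted by Benjamini-Hochberg over all genes tested, with a threshold of 0.05. Sides were compared within each day (6 samples) and over all days with day as a term. Interactions and day contrasts came from 1 fit of the 6 groups of day and side. Mice within a group are separate animals.

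Both sides came from the same animal, and the residuals of the 2 samples of a mouse correlated in each of 9 mice (r = 0.163 to 0.568), so the numbers pair the samples. The mouse was added as a block, fixed for comparisons of sides and as a consensus correlation of 0.294 for comparisons of days. On simulated data, 43.0% to 45.9% of 2-fold changes between sides were recovered at single days and 90.8% over all days. The simulated samples were drawn independently, with no link between the sides of a mouse. The changes were placed in genes picked at random and were the same at every day. Recovery in the real samples can therefore differ.

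Every collagen with a mean of at least 1 TPM was named, and genes of the collagen-related and marker lists were named where they passed or were picked in advance (Serpinh1, P4ha1, Lox, Sparc, Dcn and Tgfb1). The members and lists were chosen with earlier results of these data known.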

Additional observations from a re-analysis of the deposited data

Results flagged for a closer look

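Tgfbr1, the type I receptor of TGF-beta, was the 1 gene among the collagens and the collagen-related lists whose difference between sides itself differed between days. Its denervated minus sham difference was larger at day 3 than at day 1 by 1.20 ± 0.19 on the log2 scale (SE, limma interaction, adjusted p = 0.0233, or 0.018 once the mouse was blocked). Its level was 8.85 ± 0.731 TPM in sham and 9.24 ± 0.675 TPM in denervated samples at day 1, 8.84 ± 1.34 and 22.0 ± 4.61 TPM at day 3, and 10.3 ± 0.717 and 14.6 ± 0.601 TPM at day 7 (SD, n = 3). The collagens gave no such call in the same fit.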

How the results depend on the processing

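No collagen of at least 1 TPM was called between the sides, in an interaction or between days 3 and 7 under any setting tried, which were another pseudocount (0.1 or 1), filter (TPM above 0, or at least 5), scaling or choice of transcript, no variance trend, the mouse as a block, and each of the 9 mice left out. Col25a1, under that limit, was called between the sides over all days with the filter of TPM above 0. The block changed no call of a collagen other than those given above. Among the collagens of at least 1 TPM, the count between days 1 and 7 on the denervated side was 9 to 12 in these settings and 5 to 13 with a mouse left out, against 12. Between days 1 and 3 on that side the 7 calls became 4 with a filter of TPM above 0, 4 with only the longest coding transcript, 2 with samples scaled to an equal sum, and 1 to 9 with a mouse left out. On the sham side the 3 calls between days 1 and 7 became 1 with TPM above 0, 1 with the longest coding transcript and 1 with an equal sum. They became 0 with only the transcript of highest mean TPM, and 0 to 5 with a mouse left out. The 0 sham calls between days 1 and 3 became 0 to 1 with a mouse left out. Averaging both sides is a different contrast, which takes in the samples of either side. It gave 12 calls between days 1 and 7 and 4 between days 1 and 3. For the other filters, scalings and transcript choices and the mice left out, shares of all genes called are not given here. These counts therefore do not show whether collagens lost calls more than other genes did. The cause of the moves in count was not tested. The median difference between sides at day 7, 0.17, became 0.26 with TPM of at least 5 and 0.28 with the longest coding transcript, and was 0.19 to 0.22 with a mouse left out, and those of days 1 and 3 ran from -0.06 to 0.07 and from -0.13 to 0.05. Scaling to an equal sum moved the median change of all genes from day 1 to day 7 from 0.02 to -0.15 on the denervated side and from -0.01 to -0.18 on the sham side, and 9 of the 12 denervated calls remained (7 of 12 with both sides averaged). None of the collagen calls given above changed direction. The longest coding transcript and the mean of both sides were added after the data had been seen. With 3 mice per group, the intervals at a single day were wide for several collagens, and no read counts were used. Summed TPM gives weight to short non-coding transcripts, which held most of the sum of Col7a1, Col16a1, Col6a3 and Col24a1.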

Other observations

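Col25a1 stood just under the limit of 1 TPM, and its tests are given here because its values were seen to differ between sides. It was the collagen with the largest difference between sides at day 7, at 0.518 TPM in sham and 2.18 TPM in denervated samples, and that difference was not called by limma (log2 1.37 ± 0.29 SE, adjusted p = 0.0986, or 0.0598 once the mouse was blocked). Col25a1 entered that test only through its denervated samples, as all its sham samples at day 7 were under 1 TPM. The gene was also picked for its difference, so its tests describe the values and are no independent support. With a filter of TPM above 0 in place of at least 1 TPM, the difference over all days was 0.81 ± 0.19 (SE, adjusted p = 0.0312), and it was the only 1 of the 12 collagens under 1 TPM to be called there. That filter lets in more genes, and the share of all genes called with it is not given here. Under that filter Col25a1 also rose from day 1 to day 3 on the denervated side (1.05 ± 0.24 SE, adjusted p = 0.0219) and from day 1 to day 7 on the denervated side (1.60 ± 0.24 SE, adjusted p = 0.00114), while the sham side gave 0.30 ± 0.24 (SE, adjusted p = 0.612), and the test of the difference between these changes did not pass (1.30 ± 0.34 SE, adjusted p = 0.297).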
